A study of Homo sapiens with 3 samples.

Results

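NGP is an established line of neuroblastoma cells, and its gene expression was set against that of a Reference sample, a pool of mRNA from 16 cancer cell lines. The comparison rests on 2 arrays of the 3 in the series, the third being that of IMR-32, a further neuroblastoma line. The ratio was taken as the log2 of the NGP signal over the Reference signal for each probe set that names a single gene, and the value of a gene was the median over its probe sets. In this way 19775 genes were measured. The question was how the NGP profile is made up by function outside the amplified regions of 2p and 12q.

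The series accompanied a study of copy number and expression in both neuroblastoma lines. All 3 samples were untreated cells in their regular growth medium, with RPMI 1640 given for NGP and Minimum Essential Medium for IMR-32, and 1 Affymetrix U133 Plus 2.0 array was made for each. NGP is a single cultured line. The labels give the cell type of the pool as mixed, and which lines it held is not stated in the sources used. In a pool, a gene that many of the lines express weakly and a gene that a single line expresses strongly cannot be told apart.

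Neuroblastoma arises from the neural crest, from cells on the way to sympathetic neurons or to chromaffin cells of the adrenal medulla. A core of transcription factors, among them PHOX2A, HAND2, GATA3 and ISL1, holds that identity, and the cells make catecholamines from tyrosine. MYCN, a MYC-family transcription factor, is amplified in a share of these tumours, and low MHC class I and low caspase 8 are known features of many neuroblastoma lines.

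The values are MAS5 signals, in which each probe set summarises probes that match a transcript and their mismatch controls. The median signal was 98.8 on the NGP array, 119 on the Reference array and 89.9 on the IMR-32 array. A gene was read as firm when the higher of its NGP and Reference signals was at or above the median of that array, which held for 12767 genes. ACOD1, just inside it, had signals of 98.8 in NGP and 89.6 in the pool, and HDAC6, just outside, had 98.8 and 36.2. On the Reference side NHSL1 lay inside with 119 in the pool and 21.0 in NGP, and KCNQ1-AS1 outside with 119 and 6.61.

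A firm gene was called higher (overexpressed) or lower (underexpressed) in NGP when its ratio ranked among the highest or the lowest 7% of the genes, that is above 1.84 (3.59-fold) or below -2.88 (7.37-fold lower). By this rule 853 genes were called higher, 4.31% of those measured, and 976 were called lower, 4.94%. The median ratio over all genes was -0.22, and the medians of gene groups are given against it. With 1 array a sample there is no replicate error and no p-value. The only spread at hand is that between probe sets of the same gene, with a standard deviation of 1.41 over 10523 genes, and the number of arrays limits the precision. Of the called genes with several probe sets, 417 of 467 called higher had all of them above 0 and 372 of 402 called lower had all of them below 0. The calls go by the median of these same probe sets, so this agreement is partly built in and is no check of the calls. The listed amplicons of 2p and 12q held 87 measured genes, of which 52 were called higher and 0 lower, so that 801 higher and 976 lower calls lay elsewhere.

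The floor of the arrays weighed on both directions. Of the genes called higher, 463 (54.3%) had a Reference signal below that array's median, and of those called lower, 873 (89.4%) had an NGP signal below its array's median. The size of such ratios depends on background and is not firm, while the direction rests on the brighter sample. Where a gene has several probe sets, its signals are medians taken apart for each array, so their quotient can differ from the median ratio.

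**Figure D1:**
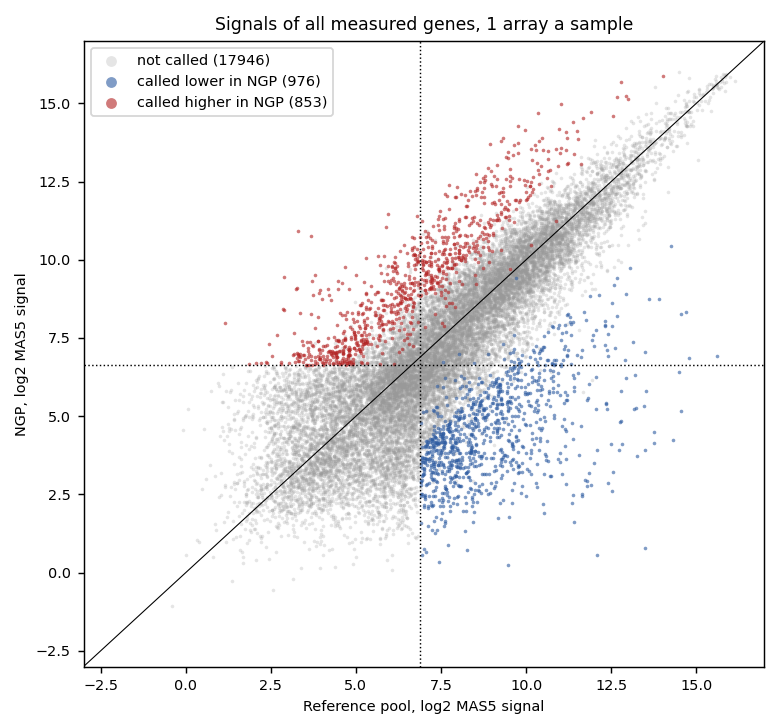
Log2 MAS5 signal of each of 19775 genes in the Reference pool (x-axis) and in NGP (y-axis), 1 array a sample, with the 853 genes called higher in NGP in red, the 976 called lower in blue and the others in grey. The diagonal marks equal signals and the dotted lines the array medians (119 and 98.8), and most of the blue points lie below the horizontal dotted line.

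The label of NGP as neuroblastoma was set against markers. They were chosen with earlier results of these data known, so they describe the arrays and are no independent check of the label. Of 13 sympathetic markers measured, 10 were called higher and 0 lower, while GATA2, CHGB and NCAM1 were not called. The summed signal of the 13 was 78573 in NGP, 8715 in the pool and 33933 in IMR-32. The largest parts in NGP came from STMN2 (19839) and ISL1 (18754). All 5 epithelial markers (EPCAM, CDH1, KRT8, KRT18 and KRT19) were called lower, with a summed signal of 284 in NGP against 56210 in the pool and 371 in IMR-32. Of 5 blood cell markers, 2 were called lower and 0 higher, and PTPRC, which defines leukocytes, was at 9.41 in NGP, 20.998 in the pool and 28.9 in IMR-32. Of 4 melanocytic markers measured, PMEL was called higher while TYR, the tyrosinase of pigment cells, was at 4.83 in NGP, 41.5 in the pool and 4.03 in IMR-32, and the summed signal of the 4 was 1283 in NGP, 529 in the pool and 617 in IMR-32. Of 8 mesenchymal and Schwann markers, TWIST1 was called higher and COL1A2 lower, and their summed signal of 12976 in NGP, 5859 in the pool and 9582 in IMR-32 was mostly that of TWIST1 (11298 in NGP), while SOX10 and S100B, which define Schwann cells, were below the NGP array median. The 6 liver and gut markers lay between 22.1 and 36.4 in NGP, all below the array median.

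Across 36 lists of genes grouped by function, 877 genes were measured, of which 99 were called higher and 115 lower. No member of a list lies in an amplicon. Each count of calls on a list stands beside the shares of all genes, 4.31% higher and 4.94% lower. Lists of sympathetic identity, neurite growth and synaptic vesicles stood at the high end. Epithelial genes, S100 and annexin genes, cancer-testis genes, death receptors and MHC class I genes stood at the low end, and lists of growth and metabolism lay near the median of all genes.

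**Figure D2:**
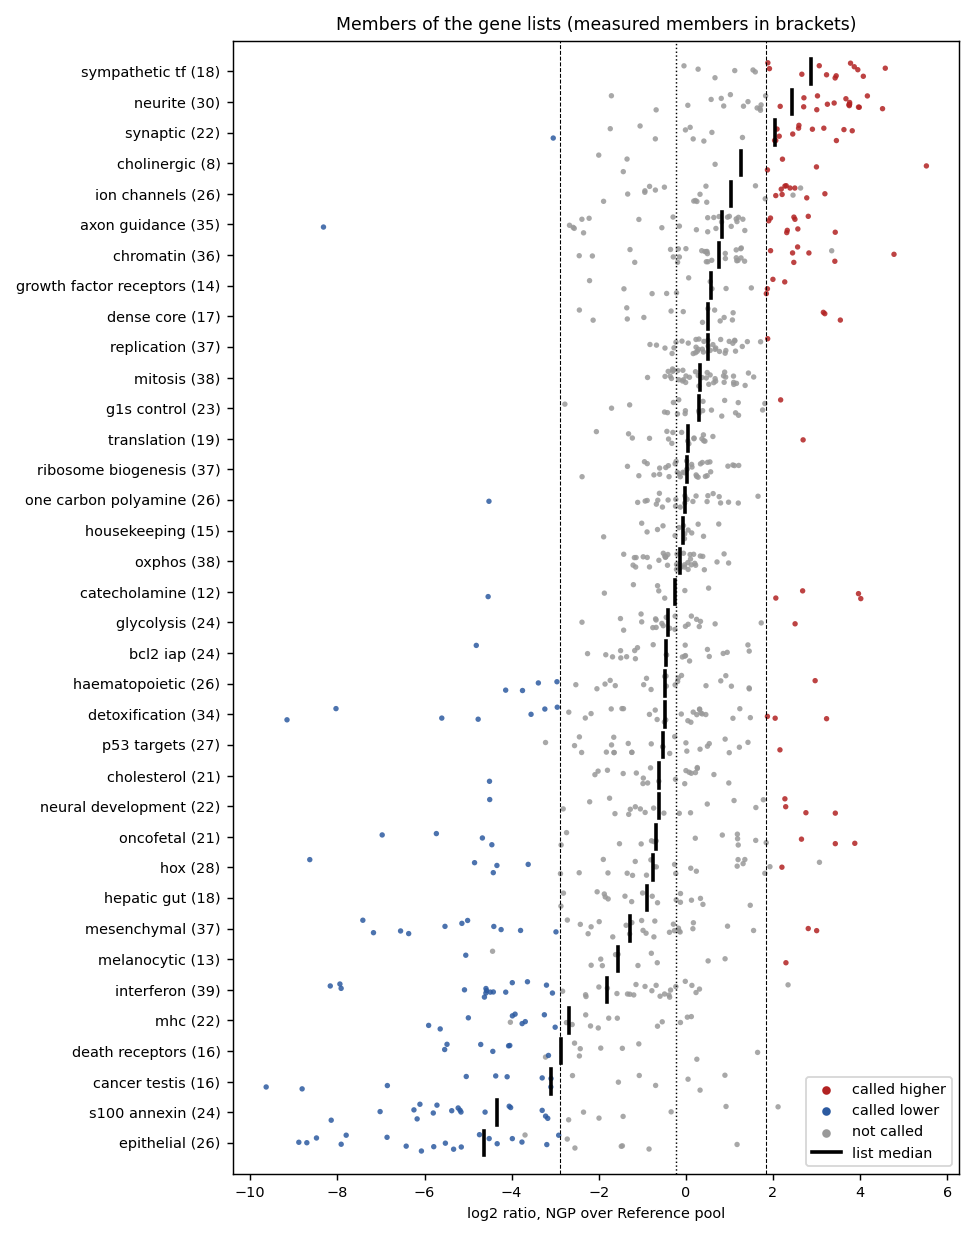
Log2 ratio of NGP over the Reference pool (x-axis) of each measured member of 36 gene lists (y-axis, number of measured members in brackets), sorted by the list median, which is drawn as a bar. Red and blue points were called higher and lower, grey points were not called, the dashed lines mark the cut-offs of 1.84 and -2.88 and the dotted line the median of all genes, -0.22. The medians run from -4.63 for epithelial genes to 2.86 for sympathetic factors.

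Transcription factors of the sympathetic lineage formed the highest list. Of 18 measured, 12 were called higher and 0 lower, a share of 66.7% against 4.31% of all genes, and the median ratio was 2.86. In IMR-32, whose ratios share the same Reference array, the median of these genes was 1.95. INSM2, a zinc finger factor of neuroendocrine cells, had signals of 15198 in NGP, 638 in the pool and 1105 in IMR-32, a ratio of 4.58 (23.8-fold). PHOX2A, a homeobox factor that activates noradrenergic genes, had 9948 in NGP, 683 in the pool and 6553 in IMR-32, a ratio of 3.86. ISL1, a LIM homeobox factor, was brighter still at 18754 in NGP, 2003 in the pool and 8676 in IMR-32, with a ratio of 3.23. For each of these genes both neuroblastoma lines lay above the pool. HAND2, a basic helix-loop-helix factor of sympathetic neurons, had signals of 928 in NGP, 147 in the pool and 829 in IMR-32 and a ratio of 2.66. Its relative HAND1 had 5475 in NGP, 502 in the pool and 2269 in IMR-32, a ratio of 3.45. GATA3, a zinc finger factor needed for noradrenergic differentiation, passed the cut-off narrowly at 1.88, and GATA2 did not at 1.54.

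NGP and IMR-32 differed for some of the factors. TFAP2B, an AP-2 factor of the neural crest, had signals of 4095 in NGP, 244 in the pool and 38.6 in IMR-32, so that IMR-32 lay below its array median and NGP far above. MEIS2, a homeobox cofactor, had 13074 in NGP, 1218 in the pool and 1209 in IMR-32, with IMR-32 level with the pool. INSM1 was the other way round, at 579.6 in NGP, 337 in the pool and 3503 in IMR-32, and was not called in NGP. SOX11, a factor of immature neurons, was high in both lines (7838 in NGP, 467 in the pool and 4766 in IMR-32), with a ratio of 3.94 in NGP. LMO1, a LIM-domain cofactor known as a neuroblastoma susceptibility gene, had 963 in NGP, 70.2 in the pool and 243 in IMR-32 and a ratio of 3.78. LMO3 was not firm, with 22.8 in NGP, 5.61 in the pool and 9.17 in IMR-32.

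Among genes of catecholamine handling, the synthesis steps up to noradrenaline were high in NGP and the last step was low. TH, tyrosine hydroxylase, the rate-limiting enzyme, had signals of 4379 in NGP, 271 in the pool and 103 in IMR-32, a ratio of 4.01 (16.1-fold). DDC, which decarboxylates L-DOPA to dopamine, had 3699 in NGP, 535 in the pool and 791 in IMR-32, a ratio of 3.96, and DBH, which makes noradrenaline from dopamine, had 636 in NGP, 69.96 in the pool and 62.5 in IMR-32, a ratio of 2.06. For TH and DBH the IMR-32 array lay below the pool, so these signals set NGP apart from both other arrays. SLC6A2, the noradrenaline transporter, had 804 in NGP, 68.8 in the pool and 546 in IMR-32. Its ratio was 2.68, with 8 probe sets that ran from -1.22 to 5.87. PNMT, which methylates noradrenaline to adrenaline, was called lower with 28.2 in NGP, 657 in the pool and 123 in IMR-32, a ratio of -4.54. The vesicular monoamine transporters SLC18A1 and SLC18A2 were dim on all 3 arrays, with NGP signals of 13.2 and 70.8. MAOA, a monoamine oxidase, was at 1004 in NGP, 2315 in the pool and 295 in IMR-32, a ratio of -1.21 that did not reach the cut-off. In all, 4 of 12 measured genes were called higher (33.3% against 4.31% of all genes) and 1 lower (8.33% against 4.94%). The median of the 12 was -0.26.

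**Figure D3:**
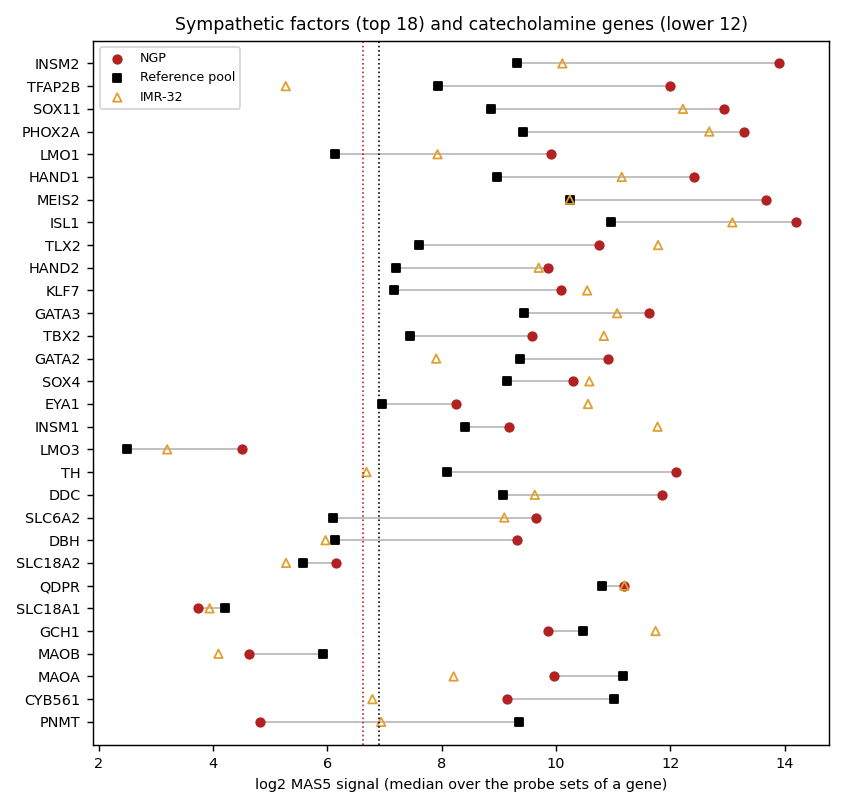
Log2 MAS5 signals (x-axis) of the 18 measured sympathetic transcription factors and the 12 measured catecholamine genes (y-axis, each sorted by ratio) in NGP (red circles), the Reference pool (black squares) and IMR-32 (open triangles), with a grey line from NGP to the pool. The dotted lines mark the median signals of the NGP (98.8) and Reference (119) arrays, and TH and DBH show NGP far to the right of both other arrays.

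Of 8 measured cholinergic genes, 4 were called higher and 0 lower, and all 4 encode nicotinic receptor subunits. CHRNA3, a subunit of the receptor of autonomic ganglia, had signals of 4567 in NGP, 608 in the pool and 8238 in IMR-32 and a ratio of 3.00. Its partner CHRNB4 had 338 in NGP, 7.36 in the pool and 430.4 in IMR-32, with a pool signal near the floor. CHRNB2 and CHRNA5 had ratios of 2.22 and 1.87, but the 2 probe sets of CHRNB2 were at -0.65 and 5.08. The genes of acetylcholine synthesis and loading were not firm in NGP, with signals of 8.42 for CHAT and 27.3 for SLC18A3, whereas IMR-32 had 329 and 461.

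Growth factor receptors of the neural crest gave 4 higher calls of 14 (28.6% against 4.31% of all genes) and 0 lower. Their median was 0.58. RET, the signalling receptor of the GDNF family, had 1669 in NGP, 383 in the pool and 57.3 in IMR-32, a ratio of 2.27, with IMR-32 below its array median. ALK, a receptor tyrosine kinase that is mutated in a share of neuroblastomas, had 870.2 in NGP, 205 in the pool and 618 in IMR-32, a ratio of 2.00. KIT (1.87) and GFRA2 (1.84) passed the cut-off narrowly, and their IMR-32 signals of 1699 and 3194 were above those of NGP, 489 and 859. Over probe sets of the unique type alone, without those marked _s_at or _x_at, 0 of the 10 receptors still measured were called. The neurotrophin receptors NTRK2 and NTRK3 and the low-affinity receptor NGFR were below the median on the NGP and Reference arrays.

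Genes of neurite growth were the second highest list, with 16 of 30 called higher (53.3%), 0 lower and a median of 2.43. STMN2, a stathmin that binds tubulin in growing axons, had signals of 19839 in NGP, 869.7 in the pool and 4369 in IMR-32 and a ratio of 4.51. The tubulin gene TUBB2B had 18083 in NGP, 1009 in the pool and 11968 in IMR-32, a ratio of 4.16. DCX, the microtubule protein of migrating neurons, had 6504 in NGP, 530.3 in the pool and 1489.8 in IMR-32, a ratio of 3.76. The neuronal intermediate filaments took part as well, INA at 3.96, NEFH at 3.98 and PRPH at 3.25, but NEFM at 0.87 and NEFL at 0.58 were not called. GAP43, the growth cone protein, had 2539 in NGP, 189 in the pool and 746 in IMR-32, and the neuronal RNA-binding proteins ELAVL3 and ELAVL4 had ratios of 3.76 and 3.67. Some neuronal genes were bright in the pool too. TUBB3 was at 23255 in NGP, 13091 in the pool and 15357 in IMR-32 and UCHL1 at 18823 in NGP, 7859 in the pool and 11068 in IMR-32, and neither was called. MAPT, which encodes tau, was at 116 in NGP, 319.8 in the pool and 210.4 in IMR-32. NCAM1, a common marker of neuroblastoma, was not firm, since the medians over its 7 probe sets were 30.9 in NGP, 62.2 in the pool and 141 in IMR-32. Its median ratio was 1.02, with probe sets from -3.11 to 2.59, so its direction is not settled.

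Synaptic vesicle genes gave 12 higher calls of 22 (54.5%) and 1 lower (4.55% against 4.94% of all genes), with a median of 2.05. SNAP25, a SNARE protein of the presynaptic membrane, had 3844 in NGP, 311 in the pool and 1142 in IMR-32, a ratio of 3.63. SYT11, of the synaptotagmin family, had 1680.2 in NGP, 119 in the pool and 771 in IMR-32, a ratio of 3.82. UNC13A, which primes vesicles, had 727 in NGP, 86.3 in the pool and 285 in IMR-32, a ratio of 3.45. These genes rested on pool signals between 86.3 and 311. SYP, the synaptophysin that is often used as a neuroendocrine marker, was not firm at 28.6 in NGP, 25.5 in the pool and 211 in IMR-32. RIMS1, an active zone protein, was the member called lower, at 16.1 in NGP, 219.7 in the pool and 4.47 in IMR-32, but its 3 probe sets ran from -4.23 to -0.73.

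Granins and peptide processing genes were less uniform, with 3 of 17 called higher (17.6% against 4.31% of all genes), 0 lower and a median of 0.50. The 3 were granin-family genes of dense core vesicles. CHGA, chromogranin A, had 6565 in NGP, 738 in the pool and 2929.9 in IMR-32, a ratio of 3.15. SCG2 had 5043 in NGP, 432 in the pool and 1839 in IMR-32 (3.54) and SCG3 had 2392 in NGP, 263 in the pool and 4198 in IMR-32 (3.19). CHGB was at 2609.7 in NGP, 1421 in the pool and 1409 in IMR-32 and NPY at 519.7 in NGP, 245 in the pool and 234 in IMR-32, and neither reached the cut-off. ADCYAP1, which encodes the peptide PACAP, was not firm in NGP at 10.9, against 1472 in IMR-32.

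Axon guidance genes had a median of 0.82 in NGP and -0.25 in IMR-32. Of 35 measured, 9 were called higher (25.7% against 4.31% of all genes) and 1 lower (2.86% against 4.94%). SLIT3, a secreted ligand of the ROBO receptors, had 1177 in NGP, 90.6 in the pool and 628 in IMR-32, a ratio of 2.48, and its receptor ROBO1 had 3808 in NGP, 1020.4 in the pool and 3225 in IMR-32, a ratio of 1.90. The netrin receptors UNC5B and DCC had ratios of 2.57 and 3.43, DCC on an NGP signal of 109.9 just above the array median. SEMA6A, a membrane-bound semaphorin, had 987 in NGP, 129 in the pool and 94.5 in IMR-32, a ratio of 2.81. The lower call was EFNA1, a ligand of Eph receptors, at 7.20 in NGP, 2301 in the pool and 103 in IMR-32, a ratio of -8.32.

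Voltage-gated channel subunits gave 9 higher calls of 26 (34.6% against 4.31% of all genes) and 0 lower, with a median of 1.04. KCNC1, a fast potassium channel, had 642 in NGP, 61.5 in the pool and 459 in IMR-32, a ratio of 3.19. CACNA1B, the pore of N-type calcium channels, had 760.5 in NGP, 74.6 in the pool and 504 in IMR-32, a ratio of 2.19, and the accessory subunit CACNA2D1 had 2014 in NGP, 257 in the pool and 1628 in IMR-32, a ratio of 2.50. The sodium channel genes SCN1A and SCN2A had ratios of 2.21 and 2.77, both over dim pool signals. Only 7 of the 26 genes had a Reference signal at or above its array median, so the size of many of these ratios is not firm.

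Of 22 genes of Notch signalling and neurogenesis, 4 were called higher (18.2% against 4.31% of all genes) and 1 lower (4.55% against 4.94%), with a median of -0.62. DLK1, a Notch-family ligand of immature chromaffin and neural cells, had 5137 in NGP, 249 in the pool and 621 in IMR-32, a ratio of 3.43, and ID2, which blocks basic helix-loop-helix factors, had 11912 in NGP, 1866 in the pool and 3303 in IMR-32, a ratio of 2.75. NHLH2 was called higher at 2.27 but was brighter in IMR-32, 7419 against 1541. NOTCH2, a Notch receptor, was called lower at 86.995 in NGP, 1782 in the pool and 43.1 in IMR-32, a ratio of -4.50, and the Notch target HES1 was at -2.21, short of the cut-off.

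Over all genes outside the amplicons, on a list or not, the 15 highest firm genes with at least 2 probe sets, all in the same direction, were GRIA2, TTC9B, NOL4, COL6A6, ACTL6B, EML5, THSD7A, STMN2, SLC7A14, SHC3, PAK5, CADPS, NSG1, BOLA3-DT and OLFM3, with ratios from 5.55 to 4.25. GRIA2, a subunit of AMPA-type glutamate receptors, had signals of 1735 in NGP, 12.8 in the pool and 99.2 in IMR-32, a ratio of 5.55 with probe sets from 2.13 to 8.02. CADPS, which primes dense core vesicles for release, had 964 in NGP, 68.9 in the pool and 40.5 in IMR-32, a ratio of 4.30, and THSD7A, a membrane protein with thrombospondin repeats, had 1702 in NGP, 101 in the pool and 38.2 in IMR-32, a ratio of 4.54. These last genes were below the median on the IMR-32 array, while STMN2 and ACTL6B (908 in NGP, 52.1 in the pool and 968 in IMR-32) were far above it in both lines. Among the 15, NSG1, which acts in neuronal endosomes, had 2718 in NGP, 176 in the pool and 286 in IMR-32, a ratio of 4.29, and SHC3, a neuronal adaptor of receptor kinases, had 801 in NGP, 138 in the pool and 137 in IMR-32. With a small constant of 32 added to both signals the ratios of the 15 ran from 2.44 for OLFM3 to 5.12 for GRIA2, and that of PAK5 was 2.53 in place of 4.31. All 15 passed the call under each alternative in which they were measured.

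Epithelial genes formed the lowest list. Of 26 measured, 19 were called lower (73.1% against 4.94% of all genes) and 0 higher, with a median of -4.63, and the IMR-32 median was -5.55. KRT8 and KRT18, keratins of simple epithelia, were near the NGP array median and bright in the pool. KRT8 had 134 in NGP, 11440.2 in the pool and 209 in IMR-32, a ratio of -6.42, and its partner KRT18 had 117 in NGP, 28088 in the pool and 98.2 in IMR-32, a ratio of -7.91. KRT19 had 9.26 in NGP, 5983 in the pool and 5.47 in IMR-32. CDH1, E-cadherin of adherens junctions, had 7.69 in NGP, 3542 in the pool and 17.5 in IMR-32, a ratio of -7.80, and EPCAM had 17.2 in NGP, 7157 in the pool and 40.97 in IMR-32, a ratio of -8.70. DSP, desmoplakin, which ties keratins to desmosomes, had 11.4 in NGP, 4075 in the pool and 9.21 in IMR-32, a ratio of -8.48. The tight junction claudins CLDN3, CLDN4 and CLDN7 had ratios of -6.07, -4.52 and -8.89, and the small GTPase RAB25, which acts in apical recycling, had 51.1 in NGP, 2349 in the pool and 13.7 in IMR-32, a ratio of -5.52. With 32 added to both signals the CDH1 ratio was -5.24 and the list median -3.21. KRT5 and KRT14, keratins of basal epithelia, were below the median on both arrays, and JUP and OCLN, at -1.48 and -1.46, were not called.

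Factors of the SNAI and ZEB families bind the hexamer CAGGTG, an E-box, in promoters of epithelial genes. Promoters of 300 bases, from 250 before to 50 after the gene start, were taken from RefSeq on GRCh38.p14 for 15384 of the measured genes and searched on both strands, that is for CAGGTG or CACCTG. No 6 letters can be read both as this motif and as CACGTG, the E-box of MYC proteins, which was searched apart. Of all promoters 19.6% held a match, of those of genes called lower 28.2% (197 of 699) and of those called higher 16.9% (111 of 658). On the epithelial list 14 of 26 measured genes had a promoter in the table and 6 of these held a match. EPCAM, CDH1, KRT7, KRT18, KRT19, KRT14, PKP3, ESRP1, GRHL2, ST14, SPINT2 and CDH3 were not searched. The counts were 8 of 22 promoters on the S100 and annexin list, 4 of 21 on the neurite list and 0 of 14 on the sympathetic factor list. The searched promoters of KRT8, CLDN1, CLDN4, CLDN7 and SPINT1, also called lower, held no match. Only 3 of the 6 matches lay in genes called lower, and the remaining ones lay in list members that were not called. Shown are these 3 genes, each in the direction of the gene. The hexamer is in capitals, so that its place can be seen. DSP has it on the strand shown, RAB25 as its reverse complement and CLDN3 behind the gene start. The windows are chr6:7541421-7541720 (plus strand) for DSP, chr1:156060910-156061209 (plus strand) for RAB25 and chr7:73770221-73770520 (minus strand) for CLDN3.
DSP: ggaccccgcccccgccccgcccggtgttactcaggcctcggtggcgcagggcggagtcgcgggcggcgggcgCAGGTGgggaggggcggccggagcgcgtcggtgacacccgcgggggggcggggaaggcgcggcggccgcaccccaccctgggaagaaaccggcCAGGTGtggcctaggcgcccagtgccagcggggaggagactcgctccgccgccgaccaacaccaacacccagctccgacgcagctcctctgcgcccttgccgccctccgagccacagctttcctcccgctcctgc
RAB25: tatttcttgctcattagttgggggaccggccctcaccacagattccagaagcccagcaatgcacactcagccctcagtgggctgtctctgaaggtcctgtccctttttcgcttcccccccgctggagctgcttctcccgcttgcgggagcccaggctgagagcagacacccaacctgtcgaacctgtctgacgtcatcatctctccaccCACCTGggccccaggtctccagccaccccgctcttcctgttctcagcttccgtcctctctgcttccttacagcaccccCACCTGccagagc
CLDN3: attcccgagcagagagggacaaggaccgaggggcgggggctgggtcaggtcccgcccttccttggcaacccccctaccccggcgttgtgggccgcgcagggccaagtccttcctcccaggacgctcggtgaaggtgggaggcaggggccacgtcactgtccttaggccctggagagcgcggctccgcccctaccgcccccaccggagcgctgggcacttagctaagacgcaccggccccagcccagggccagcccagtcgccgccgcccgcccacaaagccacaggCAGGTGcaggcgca
A match is a description of these letters and not of binding.

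Of the factors that bind this E-box, ZEB1 had signals of 1096 in NGP, 279.7 in the pool and 1576 in IMR-32, a ratio of 2.23, and was called higher, as was SNAI1 with 861 in NGP, 224 in the pool and 474 in IMR-32, a ratio of 1.94. ZEB2 (1.05) and SNAI2 (0.16) were not called. ZEB1, ZEB2 and SNAI1 are on no list and were picked after their values were seen. For CACGTG the shares were 8.90% of all promoters, 9.73% of those called higher and 7.15% of those called lower.

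Mesenchymal genes gave 11 lower calls of 37 (29.7% against 4.94% of all genes) and 2 higher (5.41% against 4.31%), with a median of -1.29. Those called higher were CDH11, a cadherin of mesenchymal and neural crest cells, at 616 in NGP, 84.5 in the pool and 226 in IMR-32 (3.00), and TWIST1, a neural crest factor that acts with MYCN, at 11298 in NGP, 1614 in the pool and 8763 in IMR-32 (2.81). VIM, vimentin, was level with the pool at 9888 in NGP, 10847 in the pool and 5546 in IMR-32. The paired coactivators of the Hippo pathway were called lower. YAP1 had 36.7 in NGP, 1296 in the pool and 334 in IMR-32, a ratio of -5.14, and WWTR1, which encodes TAZ, had 43.9 in NGP, 727 in the pool and 17.95 in IMR-32, a ratio of -5.53. CCN1 and CCN2, matricellular proteins that both can induce, had ratios of -4.24 and -6.36. CAV1, the coat protein of caveolae, had 16.4 in NGP, 2250.4 in the pool and 29.6 in IMR-32, and both of its probe sets lay between -7.34 and -7.00. FOSL1, an AP-1 subunit, had 24.3 in NGP, 2275 in the pool and 14.997 in IMR-32, a ratio of -6.55. Of the collagens, COL1A2 (-3.80), COL5A1 (-5.01) and COL5A2 (-4.41) were called lower, while the basement membrane chain COL4A2 was at 4771 in NGP, 1709.8 in the pool and 1484 in IMR-32, a ratio of 1.55.

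The S100 and annexin genes, which encode calcium-binding proteins of the cytosol and membranes, were nearly as low as the epithelial genes. Of 24 measured, 17 were called lower (70.8%) and 0 higher, with a median of -4.33. S100A6 had 22.5 in NGP, 13728 in the pool and 1180.3 in IMR-32, a ratio of -6.11, and S100A16 had 40.3 in NGP, 11385 in the pool and 429 in IMR-32, a ratio of -8.14. ANXA2, a membrane-binding annexin, had 325 in NGP, 26326 in the pool and 16064 in IMR-32, a ratio of -6.24 over 4 probe sets, and its partner S100A10 had 41.8 in NGP, 5228 in the pool and 37.4 in IMR-32, a ratio of -5.19. For ANXA2 the IMR-32 array was closer to the pool than to NGP, whereas for S100A10 both neuroblastoma arrays were low. S100A11 had 479 in NGP, 7790.4 in the pool and 3.11 in IMR-32, with NGP above IMR-32. ANXA5, ANXA6 and ANXA7 were not called, at -1.44, 0.92 and -2.35, and S100B, a Schwann cell marker, was at or below 4.14 on all 3 arrays.

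Genes of other cell types moved less. Blood cell genes gave 1 higher (3.85% against 4.31% of all genes) and 4 lower calls (15.4% against 4.94%) of 26. The lower ones were ARHGDIB, LCP1, RAC2 and LAPTM5, with ratios from -4.14 to -2.96. CD48 was called higher on an NGP signal of 130.2. Liver and gut genes gave no call among 18, and 14 of them were not firm. Of 13 melanocytic genes, 1 was called higher (7.69% against 4.31% of all genes) and 1 lower (7.69% against 4.94%). PMEL, a pigment organelle protein, was called higher with 1186 in NGP, 242 in the pool and 573 in IMR-32. MLPH was called lower with 155 in NGP, 5147 in the pool and 77.9 in IMR-32. MITF, the master factor of the lineage, was at 146 in NGP, 388 in the pool and 256 in IMR-32.

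Of 22 measured genes of MHC class I antigen presentation and ligands of killer cells, 9 were called lower (40.9%) and 0 higher. The median was -2.68, and the IMR-32 median was -2.76. HLA-C, a class I heavy chain, had 111 in NGP, 7745 in the pool and 53.01 in IMR-32, a ratio of -5.91, and HLA-B had 244 in NGP, 5144 in the pool and 27.2 in IMR-32, a ratio of -3.98. Heavy chain genes are near-identical in places, so their probe sets can share signal. B2M, the light chain, stayed bright at 13729.5 in NGP, 27225 in the pool and 14021 in IMR-32, a ratio of -0.65. TAP2, of the peptide transporter, had 10.4 in NGP, 258 in the pool and 26.5 in IMR-32 and the immunoproteasome subunit PSMB8 had 4.40 in NGP, 219.5 in the pool and 4.51 in IMR-32, ratios of -3.76 and -5.64. TAP1 (-2.74) and PSMB9 (-2.61) fell short of the cut-off, and TAPBP (0.03), the peptide loading factor tapasin, and PSMB10 (-0.54) were not called. NLRC5, the transactivator of class I genes, had 17.1 in NGP, 137 in the pool and 46.8 in IMR-32. The ligands of the NKG2D receptor of killer cells, MICA, MICB and ULBP2, had ratios of -4.99, -3.69 and -3.92. These ligands do not present peptide but are among the 22 genes and the 9 lower calls. The general chaperones CANX (-0.13) and PDIA3 (0.12) were not called.

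The list of interferon signalling and interferon-stimulated genes gave 15 lower calls of 39 (38.5% against 4.94% of all genes) and 0 higher. The median over both kinds of gene was -1.80. ISG15, a ubiquitin-like modifier, had 15.1 in NGP, 4341 in the pool and 45.8 in IMR-32, a ratio of -8.16. IFITM3, an antiviral membrane protein, had 28.4 in NGP, 6993 in the pool and 19.1 in IMR-32, and IFITM2, whose sequence is close to it, had 29.1 in NGP, 7016 in the pool and 70.9 in IMR-32. Not all stimulated genes were called. MX1 (-0.78), OAS3 (-1.58), GBP2 (-0.23), IFIT2, IFIT3, OAS1 and RIGI were firm but not called. IFIH1, XAF1, OAS2 and IFI44L were not firm. The receptors and kinases upstream were not called either. IFNGR1 was at 1086 in NGP, 876 in the pool and 1323 in IMR-32, IFNAR2 at 0.23, JAK1 at -0.02 and TYK2 at -0.49. IFI44 was low in NGP (44.6) and in the pool at 406, but reached 1682 in IMR-32. IFI16, a sensor of DNA, had 12.5 in NGP, 791 in the pool and 501 in IMR-32, again with IMR-32 nearer to the pool.

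The list of death receptors, their adaptors, first caspases and regulators was a further low group. Of 16 measured, 7 were called lower (43.75% against 4.94% of all genes) and 0 higher. The median was -2.86 against -1.64 in IMR-32. CASP8, the initiator caspase of this pathway, had 5.23 in NGP, 185 in the pool and 41.3 in IMR-32, a ratio of -4.71 over 3 probe sets from -6.76 to -3.70. TNFRSF10A, a receptor of TRAIL, had 31.6 in NGP, 444 in the pool and 44.96 in IMR-32, a ratio of -4.07, and TNFRSF1A, a receptor of TNF, had 28.1 in NGP, 1256 in the pool and 119 in IMR-32, a ratio of -5.48. The adaptor TRADD had 11.7 in NGP, 619.7 in the pool and 117 in IMR-32, a ratio of -4.04. The lower calls were not all of genes that promote death. They included the decoy TRAIL receptor TNFRSF10D (-4.43) and TNFRSF12A (-5.54). CFLAR, an inhibitor of caspase 8, was called lower too, at -3.16 with probe sets from -6.32 to 3.23. FADD, the adaptor that recruits caspase 8, was not called at 775 in NGP, 1641 in the pool and 919 in IMR-32. TNFRSF10B, the other TRAIL receptor that carries a death domain, was at 120.3 in NGP, 712 in the pool and 687 in IMR-32, a ratio of -2.56 that did not pass the cut-off, with IMR-32 level with the pool.

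**Figure D4:**
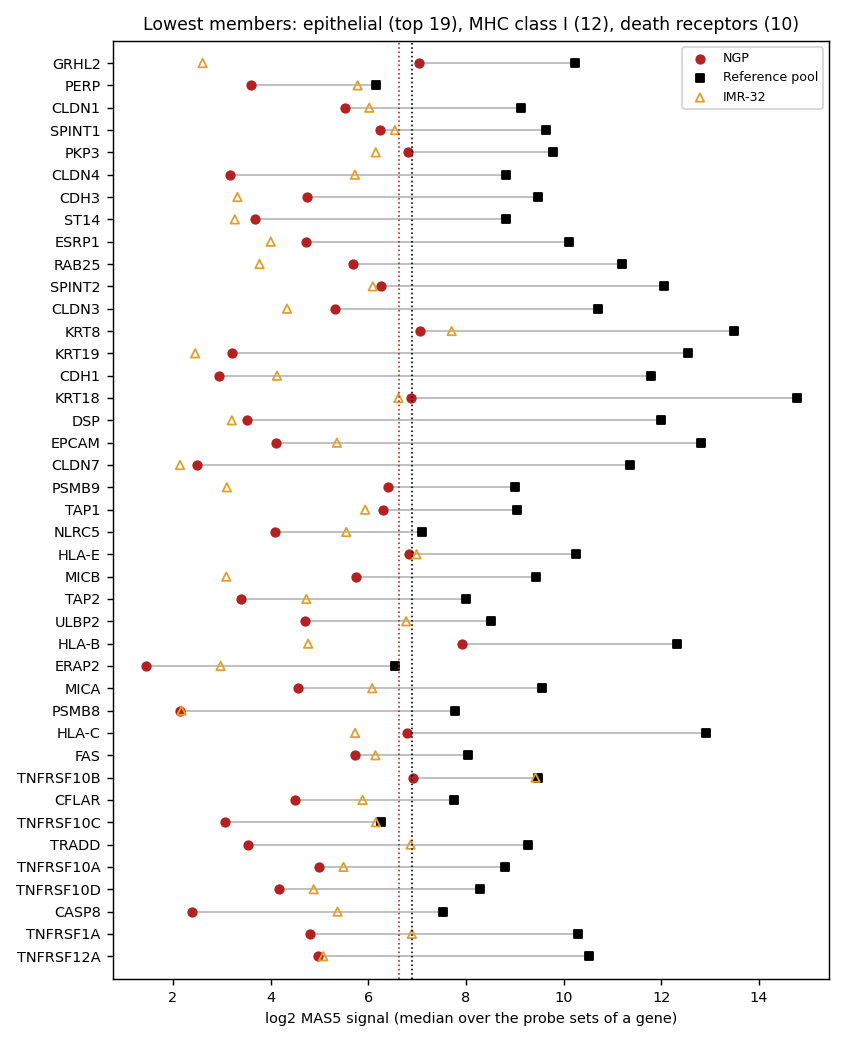
Log2 MAS5 signals (x-axis) of the members with the lowest ratios on the epithelial (19), MHC class I (12) and death receptor (10) lists (y-axis) in NGP (red circles), the Reference pool (black squares) and IMR-32 (open triangles), with a grey line from NGP to the pool. The dotted lines mark the median signals of the NGP (98.8) and Reference (119) arrays. Most NGP values lie below 98.8, and for TNFRSF10B the IMR-32 value (687) lies beside that of the pool (712).

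Of 24 BCL2 family, inhibitor of apoptosis and apoptosome genes 1 was called lower (4.17% against 4.94% of all genes) and 0 higher, with a median of -0.45. The call was BIK, a BH3-only protein, with 20.2 in NGP, 568 in the pool and 3.57 in IMR-32, a ratio of -4.81. APAF1, the scaffold of the apoptosome, was at 1.42, CYCS at 1.45, BCL2 at 0.86 and MCL1 at -0.75. HRK, a BH3-only gene of neurons, had 15.4 in NGP, 126 in the pool and 1323 in IMR-32, with NGP below both other arrays. Of 27 targets of p53 measured, 1 was called higher (3.70% against 4.31% of all genes) and 0 lower, with a median of -0.53. MDM2, which marks p53 for degradation, lies in the 12q15 amplicon and was called higher with signals of 522 in NGP, 131 in the pool and 161 in IMR-32. CDKN1A, the best known p53 target, was at 382 in NGP, 1248 in the pool and 846 in IMR-32, a ratio of -1.71. PPM1D, a phosphatase that restrains p53, was the one called higher, at 2.16, and was not called by its brightest probe set or at the top 5%.

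The MYC family was split. MYC had 85.3 in NGP, 22905 in the pool and 11.1 in IMR-32, a ratio of -8.07, while MYCN, inside the 2p amplicon, was not firm by the median over its probe sets (35.5 in NGP and 36.3 in the pool). Of its 10 probe sets 5 were bright in the array where they were higher, and 4 of these 5 were above the pool. The brightest had a signal of 46144 in NGP and 8493 in the pool, a ratio of 2.44. Genes through which MYC proteins are known to raise growth lay near the pool. Ribosome biogenesis genes gave 0 calls of 37 with a median of 0.02, from -2.38 for DDX10 to 1.21 for FBL. Translation factors gave 1 call of 19 (5.26% higher against 4.31% of all genes) with a median of 0.04. The call was EIF3C (2.69), from 1 probe set of a gene with a near-identical copy. NCL and NPM1, abundant nucleolar proteins, had ratios of 0.96 and -0.07. The pool is itself made of proliferating cancer lines, so a ratio near 0 says only that NGP and the pool had similar signals.

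DNA replication genes lay a little above all genes as a group. Of 37 measured 30 had a ratio above 0, with a median of 0.50 against -0.22. However, 1 was called higher (2.70% against 4.31% of all genes) and 0 lower. MCM6, a subunit of the replicative helicase, was the call at 8525 in NGP, 3141 in the pool and 5513 in IMR-32, a ratio of 1.88, and it was lost with quantile-normalized arrays, without probe sets ending in _s_at and _x_at, with the top 5% and with a fixed 4-fold cut-off. MCM4 was at 1.71 and CDC45 at 1.41, while the thymidine enzymes TYMS and TK1 were at -0.68 and -0.83. Mitosis genes gave 0 calls of 38 and a median of 0.33. Of 23 G1 genes 1 was called higher (4.35% against 4.31% of all genes) and 0 lower. The call was CCND1, cyclin D1, with 8184 in NGP, 1963 in the pool and 4974 in IMR-32, a ratio of 2.17. CCND2 was at -2.78. CDKN2A was at 1966 in NGP, 1021 in the pool and 22.8 in IMR-32, with IMR-32 below its array median.

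Metabolic genes were mostly near the pool. Respiratory chain subunits gave 0 calls of 38 and a median of -0.14. Glycolytic genes gave 1 call of 24 (4.17% higher against 4.31% of all genes) and a median of -0.41. That call was ENO2, the neuronal enolase, with 5869.6 in NGP, 1034 in the pool and 1777 in IMR-32, a ratio of 2.50. The housekeeping list gave 0 calls of 15 and a median of -0.06. GAPDH was at 56730.3 in NGP, 54779 in the pool and 42406 in IMR-32 and ACTB at 49168 in NGP, 50146 in the pool and 39059 in IMR-32. Of cholesterol genes 1 of 21 was called lower (4.76% against 4.94% of all genes), TM7SF2 at -4.51. Of serine, folate and polyamine genes 1 of 26 was called lower (3.85%), SAT1, which acetylates polyamines for export. SAT1 had 199 in NGP, 5436 in the pool and 392 in IMR-32, a ratio of -4.52. ODC1, the first enzyme of polyamine synthesis and a known MYC target, was at 15468 in NGP, 24202 in the pool and 21171 in IMR-32, a ratio of -0.65.

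Detoxification genes moved both ways, 3 of 34 higher (8.82% against 4.31% of all genes) and 7 lower (20.6% against 4.94%). Microsomal glutathione transferases were among the lowest, MGST1 with 15.2 in NGP, 11528 in the pool and 650.0 in IMR-32 (-8.03) and MGST2 with 5.65 in NGP, 3224 in the pool and 16.1 in IMR-32 (-9.16). NQO1, a quinone reductase, had 193 in NGP, 3990.0 in the pool and 325 in IMR-32, a ratio of -4.77. GSTP1, a cytosolic glutathione transferase, was called higher with 24967 in NGP, 6038 in the pool and 9505 in IMR-32, a ratio of 2.05. ABCB1, the drug exporter P-glycoprotein, had 15.2 in NGP, 178 in the pool and 26.04 in IMR-32, and ABCC1, an exporter tied to MYCN in neuroblastoma, was level with the pool at 1648 in NGP, 1489.5 in the pool and 1805 in IMR-32.

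Of 36 chromatin genes 7 were called higher (19.4% against 4.31% of all genes) and 0 lower, with a median of 0.75. ACTL6B and DPF1 encode subunits of the BAF remodelling complex that appear as neurons leave the cell cycle, and had ratios of 4.78 and 2.45, while ACTL6A, the progenitor counterpart of ACTL6B, was at 5032 in NGP, 3638 in the pool and 4254 in IMR-32, a ratio of 0.47. BCL11A and BCL11B had ratios of 2.48 and 2.82, and SATB1, which organises chromatin loops, had 2043 in NGP, 193 in the pool and 2679 in IMR-32, a ratio of 2.56. DNMT3A, a DNA methyltransferase, had 672 in NGP, 121 in the pool and 505 in IMR-32 (1.94) and TET1, which oxidises methylcytosine, had 852 in NGP, 209 in the pool and 670.1 in IMR-32 (3.42). The polycomb methyltransferase EZH2 was not called at -0.15.

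Oncofetal and imprinted genes gave 3 higher and 4 lower calls of 21. LIN28B, an RNA-binding protein that blocks let-7 maturation, had 4345 in NGP, 296 in the pool and 2527 in IMR-32, a ratio of 3.88, and IGF2BP1 had 131 in NGP, 20.9 in the pool and 518 in IMR-32, a ratio of 2.65. DLK1, an imprinted gene as well, was the other one called higher (3.43), and MEG3, its neighbour, was at 1.60. The imprinted genes called lower were NDN, MEST, PLAGL1 and NNAT. NDN was dim in both lines (13.2 in NGP, 699 in the pool and 10.3 in IMR-32), but the others were not dim in IMR-32. MEST had 56.5 in NGP, 7089 in the pool and 2778 in IMR-32, PLAGL1 had 24.9 in NGP, 531 in the pool and 1202 in IMR-32, and NNAT had 30.9 in NGP, 677 in the pool and 11704 in IMR-32.

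Of 28 HOX genes 1 was called higher (3.57% against 4.31% of all genes) and 5 lower (17.9% against 4.94%). HOXC5 was higher at 443 in NGP, 96.2 in the pool and 131 in IMR-32 (2.20), and HOXC4 beside it was at 1553 in NGP, 443 in the pool and 564 in IMR-32 (1.81), just short of the cut-off. Lower were HOXB2, HOXB4, HOXB7, HOXB13 and HOXC13, with ratios from -8.63 to -3.62. Cancer-testis antigens gave 9 lower calls of 16 (56.25% against 4.94% of all genes) and 0 higher, and none of the 16 reached the NGP array median. MAGEA12 had 15.2 in NGP, 6811 in the pool and 6.98 in IMR-32 and PRAME had 71.4 in NGP, 1473 in the pool and 142 in IMR-32, ratios of -8.81 and -4.37. MAGEA genes are close in sequence and their probe sets can share signal.

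The 15 lowest firm genes with at least 2 probe sets in the same direction were KLK3, HOXB13, PON2, MGST1, CDH1, UTS2, TFPI, CAV1, GDF15, YES1, PNPLA4, KRT19, LOC101928902, TMPRSS2 and HAPLN1, with ratios from -10.12 to -6.40. KLK3, prostate-specific antigen, had 18.8 in NGP, 20489.7 in the pool and 31.8 in IMR-32, and TMPRSS2, a serine protease of prostate and other epithelia, had 11.6 in NGP, 2046 in the pool and 13.2 in IMR-32. Both neuroblastoma lines were near the floor for these genes. PON2, a lactonase of membranes, had 14.1 in NGP, 2045 in the pool and 25.5 in IMR-32, a ratio of -8.06 with probe sets from -9.29 to -2.46, and GDF15, a stress-induced cytokine, had 11.8 in NGP, 671 in the pool and 62.4 in IMR-32. All 15 had NGP signals below the array median, and of these genes YES1 and MGST1 were above the median of the IMR-32 array. YES1, a kinase of the SRC family, had 6.88 in NGP, 3504 in the pool and 1585 in IMR-32. Without probe sets ending in _s_at and _x_at the UTS2 call was lost.

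Long non-coding RNAs were firm less often than coding genes. Of 2654 measured, 90 were called higher (3.39%) and 65 lower (2.45%), and 798 were firm. Of 16513 coding genes 745 (4.51%) were called higher and 888 (5.38%) lower, with 11732 firm.

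Outside the amplicons the medians of the chromosomes ran from -0.42 on chromosome 11 to 0.06 on chromosome 13. On chromosome 12 the median was -0.13 with all 1036 genes and -0.22, that of all genes, with the 84 amplicon genes left out. Calls were spread unevenly around the shares of all genes, 4.31% higher and 4.94% lower. Of the 1306 genes of chromosome 2 outside its amplicon 6.05% were called higher and 3.37% lower, and of the 1143 genes of chromosome 11 3.32% and 6.30%. Chromosome 13 had 22 higher (5.49%) and 7 lower calls (1.75%) among 401 genes, so its higher share was near that of all genes. In IMR-32 the medians were -0.33 on chromosome 11 and 0.03 on chromosome 13, over the same Reference array.

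**Figure D5:**
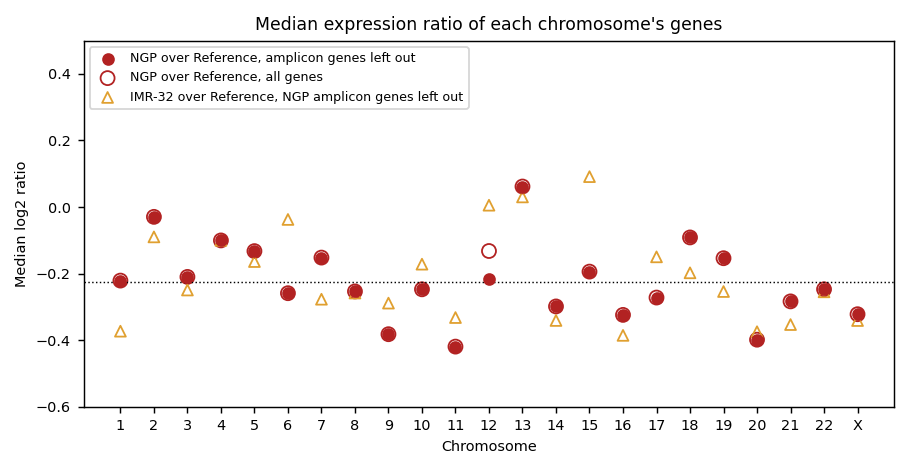
Median log2 expression ratio over the Reference pool (y-axis) of the measured genes of each chromosome (x-axis), for NGP without the amplicon genes (filled circles), NGP with all genes (open circles) and IMR-32 without the same genes (open triangles). The dotted line marks the NGP median of all genes, -0.22, and the open and filled circles part visibly only on chromosome 12 (-0.13 and -0.22).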

How the data were processed

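Gene expression of NGP and of the Reference pool was measured on 1 Affymetrix U133 Plus 2.0 array each, with the IMR-32 array beside them. The deposited values are signal intensities that the authors made by MAS5 in the affy package of Bioconductor (version no version stated). Once 2% of the signals at either end are dropped, the mean is 500 on every array, so the arrays were scaled to a common mean and a general shift in RNA content is not seen. MAS5 subtracts mismatch signals, which makes low signals noisy. No reads were counted, and the number of arrays limits the precision.

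Of 54675 probe sets 62 controls were left out, 41091 named 1 gene symbol and were used, 1801 named several and 11721 none. Of those used, 41037 were matched by gene ID to the RefSeq gene table, for current symbols. Log2 ratios without a pseudocount were computed per probe set, a gene took the median, and calls used the top and bottom 7% of genes, the cut-off share of the methods, and a firm signal. Groups came from the sample labels, and with a single array per sample p-values were not computed.

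Named were the 15 highest and 15 lowest firm genes outside the amplicons with at least 2 probe sets that all lay on the same side of 0 (Y-linked genes and XIST left out), called or defining members of 36 gene lists, up to 5 a direction and list, and MYC and MYCN. Further members are given as values where they fill out a pathway. The members, lists, markers and this rule were chosen with earlier results of these data known. The 11 alternatives were ratios centred on the median of all genes, arrays quantile-normalized to each other, a constant of 32 added before the log2, no dim probe sets, the brightest or the mean of the probe sets of a gene, only probe sets of the unique type (neither _s_at nor _x_at), the top and bottom 5% and 10%, a fixed 4-fold cut-off, and firmness by any probe set. The procedure was tested on simulated data, in which only genes bright in the pool were changed, by more than either cut-off. That test does not cover calls near the floor or near the cut-offs. Scripts ran in Python 3.11.15 with pandas 2.3.3 and numpy 2.4.6, and figures were drawn in matplotlib 3.10.9.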

Additional observations from a re-analysis of the deposited data

How the results depend on the processing

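Against the 853 higher and 976 lower calls, the alternatives gave 617 to 1220 higher and 755 to 1616 lower. The fixed 4-fold cut-off gave 1616 lower and 753 higher, so that 31.8% of calls were higher instead of 46.6%, and the median of all genes was -0.22. Centring the ratios moved every value by 0.22 and no call, since calls go by rank. The log2(signal + 32) scale gave 1220 higher and 1340 lower, with cut-offs of 1.20 and -1.75. No called gene among the 15 highest, the 15 lowest, MYC and MYCN changed sign, and no list whose median was 1 or more in size did. Other members of the lists were not followed gene by gene. The medians of 9 lists near 0 took both signs over the alternatives, among them those of catecholamine genes (-0.26 to 0.50), growth factor receptors (-0.38 to 1.20) and oncofetal genes (-0.73 to 0.15). Of the values, 250 of 252 list medians moved by less than 1.41, the standard deviation between probe sets. So did 161 of 161 chromosome medians. These ran only from -0.42 to 0.06, so they could hardly pass that limit and the count says nothing of their stability. Under the alternatives that change the ratios, chromosome 11 stayed the lowest (-0.52 to -0.20) and chromosome 13 the highest (0.01 to 0.36). Of the list shares, 767 of 792 stayed within their exact 95% binomial interval. For the 15 highest, the 15 lowest, MYC and MYCN, 39 of 219 ratios moved by more than 1.41. The exceptions among lists mostly rest on 1 gene. Higher calls on the replication list fell to 0% with quantile normalization, with unique probe sets only (neither _s_at nor _x_at), at the top 5% and at 4-fold. Those of the growth factor receptors fell to 0% with unique probe sets only, and to 7.14% with the top 5% and with 4-fold. The p53 targets gave 0% higher with the brightest probe set and the top 5%, the G1 genes 0% with unique probe sets only and with the top 5%, and the HOX genes 0% with the top 5%. The synaptic list gave 0% lower with the brightest probe set, the mean, the top 5%, and with unique probe sets only. With unique probe sets only, neural development, one-carbon and cholesterol genes gave 0% lower and melanocytic genes 0% in either direction. The blood cell list gave 3.85% lower with the brightest probe set, the axon guidance list 17.1% lower with 4-fold, the neurite list 76.7% higher on the log2(signal + 32) scale, and the ion channels 59.1% higher without dim probe sets. The epithelial median was -3.21 on the log2(signal + 32) scale, and the liver and gut median -2.84 without dim probe sets. MYCN was at 4.40 without dim probe sets. No paired analysis was possible because each group is 1 array. Signal over background limits the values, with 7008 of 19775 genes not firm.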

Other observations

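Some genes called lower in NGP against the pool were not low in IMR-32, so that a dim signal was found in NGP and not in the other neuroblastoma line. Outside the amplicons, 873 genes were called lower with an NGP signal below its array's median. Of these, 239 had an IMR-32 signal at or above the median of its own array. In 119 of them the IMR-32 signal was at least 1/2 of the Reference signal. The same shares over all measured genes were not counted, so these counts only describe the called genes. The genes named in this paragraph lie outside the naming rule and were chosen after their values were seen. FABP5, a fatty acid-binding protein, had signals of 1.72 in NGP, 11567 in the pool and 24491 in IMR-32, a log2 ratio of -12.72. GJA1, the gap junction protein connexin 43, had 1.47 in NGP, 4367 in the pool and 3007 in IMR-32, a log2 ratio of -11.54. Both rest on 1 probe set, and signals this close to 0 have no reliable size. ZIC2, a zinc finger factor of the neural plate, had 16.7 in NGP, 776 in the pool and 7495 in IMR-32, and EYA2, a transcriptional coactivator, had 9.57 in NGP, 315 in the pool and 1636 in IMR-32. Among genes not dim in NGP, UBB, which encodes ubiquitin as a chain of repeats and is otherwise expressed in nearly every cell, had 121 in NGP, 50424 in the pool and 42972 in IMR-32, a log2 ratio of -8.70 from 1 probe set.

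In the other direction, of 801 genes called higher in NGP outside the amplicons, 206 had an IMR-32 signal below the median of its array. Here too the share over all measured genes was not counted. LAMP5, a lysosome-associated membrane protein of neurons, had 1939 in NGP, 9.80 in the pool and 19.6 in IMR-32, a log2 ratio of 7.63, and CRYBA2, a crystallin, had 696 in NGP, 7.46 in the pool and 17.8 in IMR-32, a log2 ratio of 6.54. Each rests on 1 probe set and a Reference signal near the floor. CYP1B1, a cytochrome P450 of steroid and xenobiotic metabolism, was bright in NGP at 13741 in NGP, 875 in the pool and 76.2 in IMR-32, a log2 ratio of 3.98 over 4 probe sets from 3.96 to 7.20. PCDH17, a protocadherin, had 1422 in NGP, 85.5 in the pool and 15.6 in IMR-32, a log2 ratio of 4.06 over 3 probe sets. LAMP5, CRYBA2, CYP1B1 and PCDH17 were also chosen after their values were seen.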
